A study of Mus musculus with 52 samples.

Results

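ABC transporters are membrane pumps that use ATP to move drugs, conjugates and lipids out of cells. The set described here held 9 genes: Abcc2, Abcc3, Abcc4, Abcb1a, Abcb4, Abcg2, Abcg5, Abcg8 and Abca1. Its members were the probe sets whose only gene symbol in the array annotation was that of one of these genes. Abcc4 had no probe set of its own symbol and has no value here. The other 8 genes had 11 probe sets of the 22626 on the array. Of these, 10 probe sets, for all 8 genes, passed the filter on low signal, as did 18349 probe sets for 10755 genes in all.

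Gene expression was measured in liver of male B6C3F1 mice, 9 weeks old, at 4 h, 20 h, 14 days and 28 days after a single intraperitoneal dose. There were 52 Affymetrix arrays, 1 for each chemical or vehicle at each time. The RNA on an array came from a pool of 5 livers, so the spread between mice is not known. The series compares genotoxic hepatocarcinogens with non-genotoxic chemicals. Of the latter used here, the authors class phenobarbital as a hepatocarcinogen and ethanol as not being one in the mouse.

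Among the genotoxic chemicals, 3 shared an olive oil control. These were AAT (o-aminoazotoluene, given at 300 mg/kg), DMBA (7,12-dimethylbenz[a]anthracene, at 20 mg/kg) and DBP (dibenzo[a,l]pyrene, at 6 mg/kg). Each of the other 3 had a saline control of its own: ENU (N-ethyl-N-nitrosourea, at 150 mg/kg), DMN (dimethylnitrosamine, at 5 mg/kg) and DPN (dipropylnitrosamine, at 250 mg/kg). The non-genotoxic chemicals EtOH (ethanol, at 1000 mg/kg) and PB (phenobarbital, at 30 mg/kg) shared a saline control. A log2 ratio is the log2 signal of a treated array minus that of its own control at the same time, and a ratio of 1 is a 2-fold change. Ratios that share a control are not independent. AAT, DPN and PB, called inducers here, were set apart because they raise drug-metabolizing enzymes. At 4 h the ratio of Cyp2b10, a phenobarbital-inducible P450, was 4.36 in DPN, 3.70 in PB and 3.58 in AAT. In the other 5 chemicals it lay between -0.49 and 1.97, the highest in ENU. At 20 h it was 5.80 in AAT, 0.99 in DPN and -3.24 in PB, the last against a control described below. At 14 and 28 days it lay between -0.04 and 0.48 in AAT, DPN and PB, so this gene does not bear out the name at those times.

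In hepatocytes the transporters are sorted to a side of the cell. Abcc2 (Mrp2), Abcb1a (P-glycoprotein) and Abcg2 (Bcrp) sit in the canalicular membrane and pump conjugates and drugs into bile. Abcc3 (Mrp3) and Abcc4 (Mrp4) sit in the basolateral membrane and return conjugates to blood. Abcb4 (Mdr2) moves phosphatidylcholine into bile, Abcg5 and Abcg8 work as a heterodimer that secretes cholesterol and plant sterols, and Abca1 loads cholesterol and phospholipid onto apolipoprotein A-I. Abcc2 and Abcc3 are known targets of NRF2, CAR and PXR, and Abca1, Abcg5 and Abcg8 of the sterol sensor LXR.

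The promoters of Abcc2 and Abca1, genes with ratios past 2-fold, are shown. The DNA between Abcg5 and Abcg8 is shown because their ratios correlated. Abcb1a, also with a ratio past 2-fold, had 1 window, which held none of the motifs counted below and is not shown. All sequences shown are RefSeq sequence of GRCm38.p6. The RefSeq table held 12 windows for 8 of the 9 genes, and Abcc3 was the one without. Capitals in Abcc2 (chr19:43782058-43782307, + strand) mark TGACNNNGC, the core of the antioxidant response element that NRF2 binds. Capitals in Abca1 (chr4:53159896-53160145, - strand) mark CACGTG, an E-box. Both are the 250 bases before the annotated start. Capitals in the 109 bases between the divergent starts of Abcg5 and Abcg8 (chr17:84683012-84683120, + strand) mark TTATC, the reverse complement of the GATA core GATAA.
Abcc2: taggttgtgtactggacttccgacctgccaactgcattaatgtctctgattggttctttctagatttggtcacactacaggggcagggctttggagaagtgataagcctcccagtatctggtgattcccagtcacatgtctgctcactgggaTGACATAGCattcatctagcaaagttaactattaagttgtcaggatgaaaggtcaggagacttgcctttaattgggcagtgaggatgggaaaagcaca
Abca1: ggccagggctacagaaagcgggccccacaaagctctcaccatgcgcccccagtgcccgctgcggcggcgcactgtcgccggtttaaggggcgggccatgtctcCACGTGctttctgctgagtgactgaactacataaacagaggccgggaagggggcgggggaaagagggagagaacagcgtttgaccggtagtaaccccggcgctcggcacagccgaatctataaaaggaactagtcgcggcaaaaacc
Abcg5 and Abcg8: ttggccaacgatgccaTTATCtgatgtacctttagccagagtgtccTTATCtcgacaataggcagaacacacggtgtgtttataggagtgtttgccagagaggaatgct

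On both strands of the 250 bases before the start, 10.2% of 32851 RefSeq windows held TGACNNNGC, 6.02% held CACGTG, 22.6% held GATAA and 28.2% held the dioxin response core GCGTG. The TGACNNNGC match in Abcc2 lay 98 to 90 bases before its start. Abcc4 held TGACNNNGC in both of its windows. GCGTG was found in windows of Abcc4, Abcb4 and the upstream window of Abcg8. GATAA was not particular to Abcg5 and Abcg8, since windows of Abcc2, Abcc4, Abcb4 and Abcg2 also held it. In the Abcc2 sequence above it is left in lower case. CACGTG was also found in a window of Abcc4. These matches describe letters only, and none of the 4 motifs contains another. Sites of LXR, CAR and PXR were not sought, so lower case does not mean that they are absent.

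Some array-wide values touch these results. Before scaling, the median signal was 17.9 in the PB array of 28 days, the lowest of the 52 arrays. It was 205 in the DMN control of 14 days, the highest. PB ratios of 28 days and DMN ratios of 14 days rest on these 2 arrays after scaling. Hepatocyte markers summed to a log2 signal between 15.58 and 16.61 on all arrays, with Alb and Ttr never at the floor, while the cholangiocyte markers Krt19, Krt7 and Sox9 were at the floor on 32, 48 and 35 of the 52 arrays. The EtOH array of 20 h stood apart in the 3' to 5' ratio of the control probe sets, with 3.13 for Gapdh on the log2 scale against -0.51 to 0.34 on the other 51 arrays. The array labelled saline control of EtOH and PB at 20 h had Cyp2b10 at a log2 signal of 11.48, where the other 4 controls of that time lay between 6.19 and 7.26 and the PB array at 8.25. Ratios of EtOH and PB at 20 h rest on these arrays. Because whole liver was measured, fewer cells of a type and less RNA per cell cannot be told apart.

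Most ratios of the transporters were small. Over 8 genes and 32 treated arrays, 229 of 256 ratios lay within 0.5 of 0. The share of all tested probe sets within 0.5 is not given here, so this count is a description. The median was 0.01, and the extremes were -1.51 for Abca1 and 1.23 for Abcc3. Only 6 ratios were past 2-fold, 4 up and 2 down, and 3 of the 6 came from DPN. For background, 3.13% of the ratios of all tested probe sets were past 2-fold, and 3.54% of the differences between saline controls of the same time, so the members' share was near the background and is no result about them. Differences between saline controls were past 2-fold in 1 of 192 cases for the members. With the mean of all 5 controls of a time in place of the own control, an alternative chosen after seeing the data, 0 of the 256 ratios were past 2-fold.

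**Figure D1:**
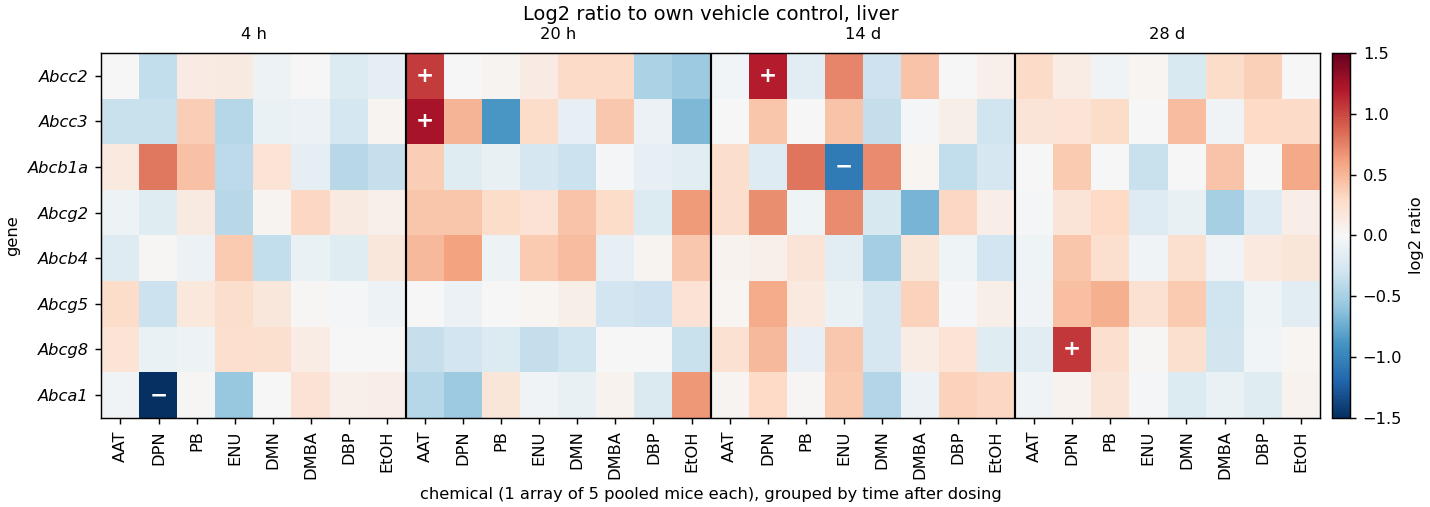
Log2 ratio of 8 transporter genes (rows) in 32 treated arrays (columns, 8 chemicals at each of 4 times) to the own vehicle control, with red for higher, blue for lower and the colours saturated at 1.5 either way. The 6 cells marked + or − are past 2-fold, of which 3 are in DPN, 2 in AAT at 20 h and 1 in ENU at 14 days.

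Abcc2 and Abcc3, the conjugate pumps of the canalicular and the basolateral side, were both higher in AAT at 20 h. The log2 signal of Abcc2 at 20 h was 9.62 in AAT, and in the 5 controls it was 8.58 (olive oil), 8.59 (EtOH and PB), 8.70 (DMN), 8.86 (DPN) and 8.95 (ENU). It was 9.07 in ENU, 8.99 in DMN, 8.87 in DMBA, 8.86 in DPN, 8.64 in PB, 8.11 in DBP and 8.05 in EtOH. AAT was thus above all 12 other arrays of that time, and the ratio was 1.05 (2.06-fold). The log2 signal of Abcc3 was 10.83 in AAT, against 9.60 (olive oil), 9.69 (DPN), 9.88 (DMN), 9.94 (ENU) and 10.49 (EtOH and PB) in the controls. The other 7 treated arrays lay between 9.51 (DBP) and 10.22 (ENU), so that AAT was again the highest, with a ratio of 1.23 (2.35-fold). Against the mean of all 5 controls these ratios were 0.89 and 0.91. They exceeded the largest difference between saline controls at 20 h, which was 0.36 for Abcc2 and 0.80 for Abcc3. Of all tested probe sets, 2.1% were past 2-fold up in AAT at 20 h. There is 1 array in each case and no test.

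**Figure D2:**
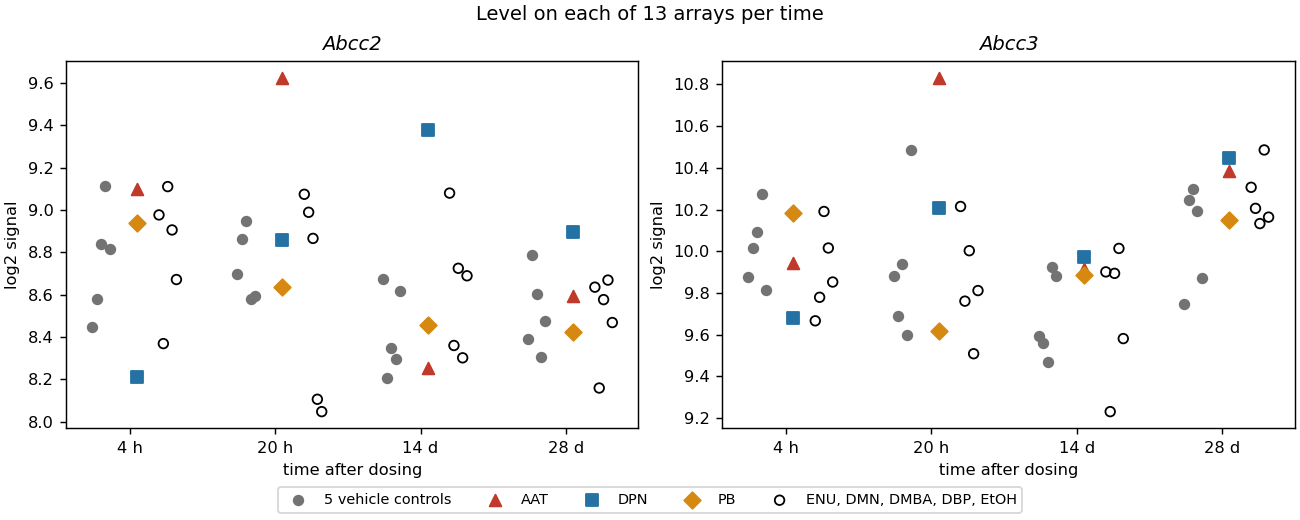
Log2 signal of Abcc2 (left) and Abcc3 (right) on the 13 arrays of each time after dosing, with vehicle controls in grey, AAT, DPN and PB as filled symbols and the other 5 chemicals as open circles. AAT at 20 h is the highest array of both genes (9.62 and 10.83), and DPN at 14 days (9.38) is above all controls for Abcc2.

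At 4 h neither gene was higher in AAT. Its ratio at 4 h, 14 days and 28 days was -0.01, -0.04 and 0.29 for Abcc2 and -0.33, -0.01 and 0.19 for Abcc3. The high values were thus seen at 1 of the 4 times. Over the 32 ratios Abcc2 and Abcc3 had the highest correlation of any pair of members (r = 0.59, with shared controls).

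The known targets of the regulators of these pumps are given for AAT at 20 h. AAT was set apart as an inducer of P450 and NRF2 target genes, so high values of them restate the grouping. Whether these regulators act on Abcc2 or Abcc3 here was not tested. Among the targets of NRF2, the regulator of the antioxidant response, 14 of 20 genes were past 2-fold up in AAT at 20 h, and the list's median ratio was 1.46 where the median of all tested probe sets was 0.00. Cbr3, a carbonyl reductase, had a ratio of 3.71, but its probe set was at the floor on 43 arrays of the series. Srxn1, which repairs peroxiredoxins, had 2.80, and Gclc, which limits glutathione synthesis, 1.44. Nqo1, a quinone reductase, had 2.56, while Hmox1, like Gclc and Nqo1 a reference gene of induction, had 0.12. The dioxin receptor targets Cyp1a1 and Cyp1a2 had 5.59 and 1.49, and Cyp2b10 had 5.80. Of the 22 other ABC transporters with a probe set, none was past 2-fold up, and Abcc6, a hepatocyte pump with a role in mineralization, was at -1.47. Abcg2 (0.42), Abcb4 (0.48) and Abcb1a (0.37) were above 0 in this array, Abcg5 was at 0.00, and Abca1 (-0.42) and Abcg8 (-0.35) were below. In this array all 7 hepatocyte markers were below 0 (median -0.18, summed log2 signal 15.58 against 15.86 to 16.36 in the 5 controls), and their part in these ratios was not tested.

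DPN and PB gave other values for this pair. In DPN the Abcc2 ratio was -0.37 at 4 h, 0.00 at 20 h, 1.17 at 14 days and 0.11 at 28 days. The 14-day value came from a log2 signal of 9.38 in DPN, against 8.21 (DPN), 8.30 (olive oil), 8.35 (ENU), 8.62 (EtOH and PB) and 8.68 (DMN) in the controls. DPN was the highest of the 13 arrays there, ENU followed at 9.08, and the DPN control was the lowest of the 5. In DPN at 14 days 4.37% of all tested probe sets were past 2-fold up, and the median ratio of all of them was 0.09. Abcc3 in DPN stood at -0.34, 0.52, 0.41 and 0.20 at the 4 times in order.

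In PB, the reference inducer of CAR, neither gene was past 2-fold at any time. Abcc2 stood at 0.12, 0.04, -0.16 and -0.06 in order of time, and Abcc3 at 0.37, -0.87, 0.00 and 0.28. The value of -0.87, the lowest of the 32 as labelled, rests on the 20 h control whose Cyp2b10 was high and whose Abcc3 (10.49) was the highest of the 5 controls. Against the mean of all 5 controls it was -0.30. EtOH, which shares that control, was at -0.68. If the PB array and its control were exchanged at 20 h, a reading of these labels added after seeing the data, Abcc3 would be at 0.87 in PB and 0.19 in EtOH. Which reading holds was not tested. The 6 ratios past 2-fold are of other chemicals or times.

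Abca1 in DPN at 4 h had the largest ratio of any member. Its brightest probe set had a log2 signal of 9.53 in DPN at 4 h, the lowest of the 52 arrays. The controls of that time stood at 10.29 (EtOH and PB), 10.34 (DMN), 10.44 (olive oil), 10.55 (ENU) and 11.04 (DPN). The ratio of -1.51 thus combined the lowest array with the highest control, and against the mean of all 5 controls it was -0.999. The other 2 probe sets of Abca1 were at -1.48 and -2.07 in the same array, so all 3 gave the same direction. Of all tested probe sets, 1.82% were past 2-fold down in DPN at 4 h. The largest difference between saline controls at 4 h was 0.76 for this probe set.

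Among the arrays of 4 h ENU was the next lowest, with a log2 signal of 9.98 and ratios of -0.57, -0.25 and -0.45 in the 3 probe sets. The other 6 chemicals lay between -0.06 and 0.22 at 4 h in the brightest probe set. DPN was at -0.54 at 20 h, 0.30 at 14 days and 0.06 at 28 days, and at 20 h the 3 probe sets were within -0.54 to -0.47. The LXR and sterol targets, the list that Abca1 belongs with by its known regulation, had a median ratio of -0.22 in DPN at 4 h, with 6 of 10 below 0 and 0 past 2-fold either way. Other ABC transporters had 15 of 22 below 0, and Abcc6 (-1.01) and Abcg3 (-1.21), a rodent relative of Abcg2, were past 2-fold down. Abca1 is also made by macrophages. The 10 Kupffer cell and macrophage markers had a median of -0.11 there, with 7 below 0 and 0 past 2-fold. Their summed log2 signal was 11.75, where the 5 controls lay between 11.51 and 12.09. The part of macrophages in the Abca1 ratio was not tested. Of the CAR and PXR targets 5 of 14 were past 2-fold up in this array, among them Cyp2b10. DPN was set apart as an inducer of P450 genes, so this count restates the grouping. Nr1i2, which encodes PXR, had a ratio of 1.87.

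**Figure D3:**
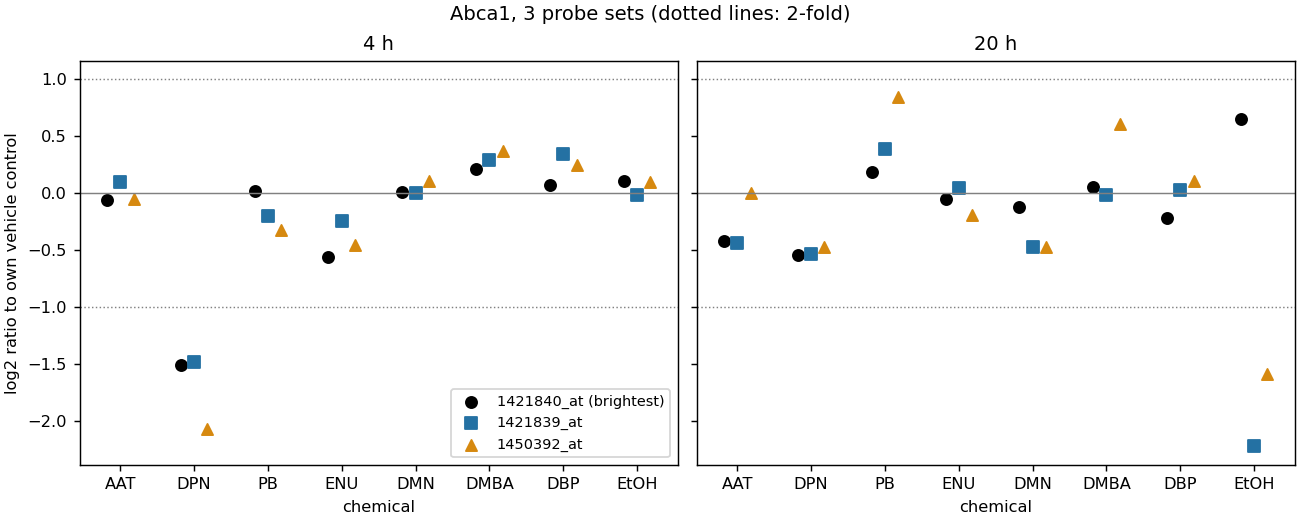
Log2 ratio of the 3 Abca1 probe sets to the own vehicle control for 8 chemicals at 4 h (left) and 20 h (right), with dotted lines at 2-fold. All 3 are past 2-fold down in DPN at 4 h (-1.51, -1.48 and -2.07), and in EtOH at 20 h they disagree (0.65, -2.23 and -1.59).

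The probe sets of Abca1 did not always give the same direction. In EtOH at 20 h the brightest probe set had a ratio of 0.65, and the others -2.23 and -1.59, the last at the floor of the signal. This is the array with the high 3' to 5' ratios given above. Signs also differed in arrays with smaller ratios, such as ENU at 14 days (0.39, -0.28 and 0.52) and DMN at 14 days (-0.44, -0.38 and 0.32). Over 32 ratios the 3 pairs of probe sets correlated at 0.28, 0.83 and 0.49, and without that array, over 31 ratios, at 0.81, 0.80 and 0.78. No statement on Abca1 in EtOH at 20 h can be made from the brightest probe set alone.

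**Figure D4:**
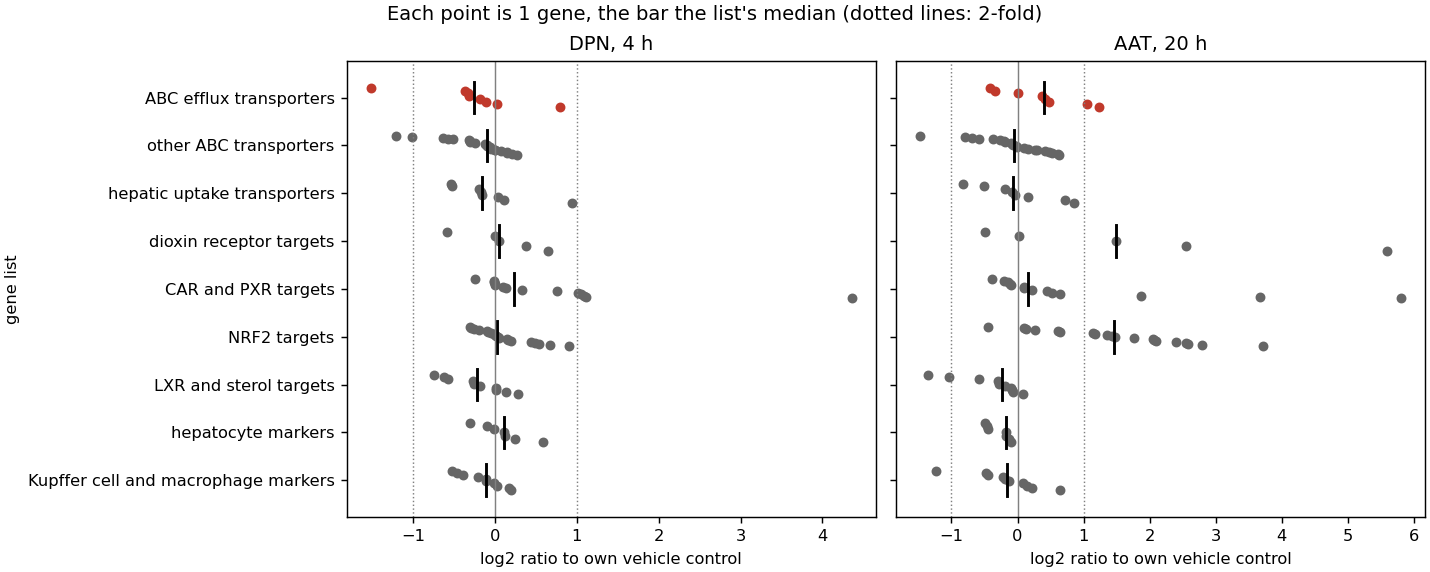
Log2 ratio of each gene in DPN at 4 h (left) and AAT at 20 h (right) for the 8 transporters (red) and 8 other gene lists (grey), with the median of each list as a bar and dotted lines at 2-fold. NRF2 targets have a median of 1.46 in AAT at 20 h and 0.02 in DPN at 4 h, and the transporters 0.40 and -0.25.

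Abcg5 and Abcg8 form the sterol pump, and Abcg5 differed between control sets. The log2 signal of Abcg5 in the 4 controls of the ENU set lay between 10.03 and 10.26 and in those of the DPN set between 10.12 and 10.30. It lay between 9.14 and 9.68 in the olive oil controls, between 9.30 and 9.64 in the DMN controls and between 9.41 and 10.05 in the EtOH and PB controls. The ENU and DPN controls did not overlap with the olive oil and DMN controls at any time, so that Abcg5 levels cannot be compared across sets without the own control. The largest difference between saline controls was 0.81, 0.85, 0.53 and 1.00 at the 4 times in order. The ratios of Abcg5 ran from -0.32 to 0.56, and 1 of 32 fell outside the saline differences of its time. Abcg8 in controls was between 8.92 and 9.77, with overlap among all sets.

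**Figure D5:**
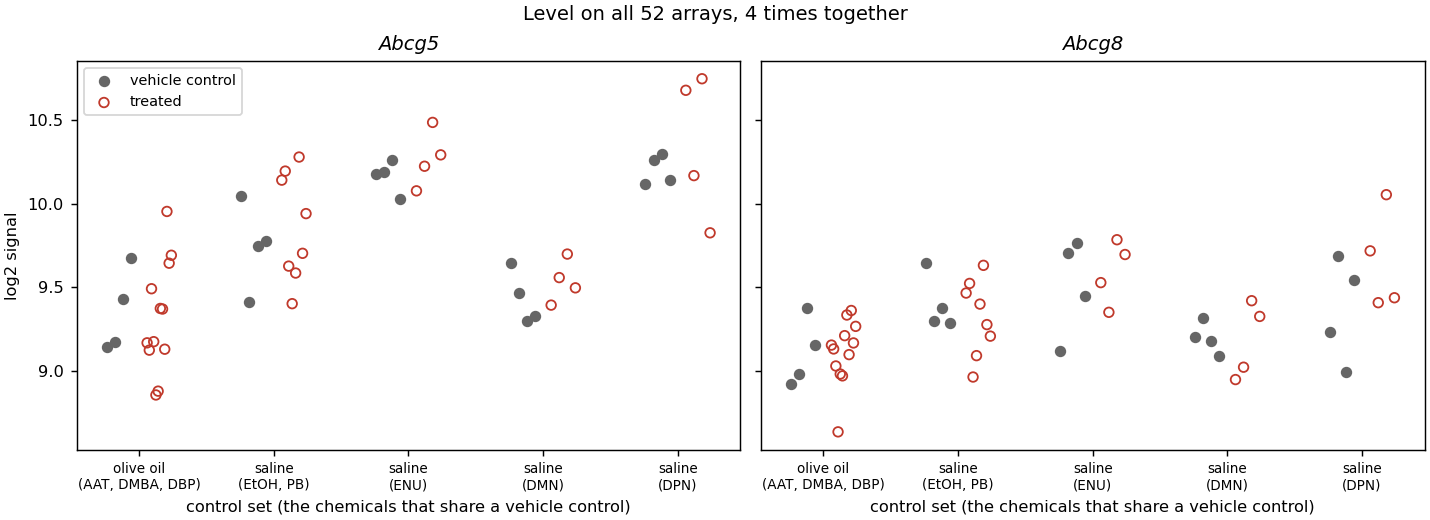
Log2 signal of Abcg5 (left) and Abcg8 (right) on all 52 arrays by the control set, with vehicle controls as filled grey points and treated arrays as open red points. For Abcg5 the ENU and DPN controls (10.03 to 10.30) lie above the olive oil and DMN controls (9.14 to 9.68).

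DPN at 28 days was the exception for Abcg8. Its log2 signal was 10.05 in DPN, the highest of the 52 arrays, against 8.996 (DPN), 9.18 (DMN), 9.37 (EtOH and PB), 9.38 (olive oil) and 9.77 (ENU) in the controls. The ratio was 1.06 (2.08-fold), and 0.71 against the mean of all 5 controls, since the DPN control was the lowest. Of all tested probe sets, 1.38% were past 2-fold up in that array. Abcg5 in the same array was at 0.45, from a log2 signal of 10.75, the highest of its 52 arrays. At 14 days DPN had 0.48 for Abcg8 and 0.56 for Abcg5. Over the 32 ratios Abcg5 and Abcg8 correlated at 0.52 (with shared controls), the next highest after Abcc2 with Abcc3 among the pairs of members. Whether the 109 bases between their starts play a part was not tested.

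At 20 h Abcg8 was lower than its control in all 6 genotoxic chemicals, but by little. The ratio was -0.36 in ENU, -0.35 in AAT, -0.29 in DMN, -0.28 in DPN, -0.01 in DMBA and just below 0 in DBP, and it was also below 0 in EtOH (-0.34) and PB (-0.21), which with the same exchange would be at -0.13 and 0.21. In the genotoxic class at 20 h the log2 difference was -0.25 ± 0.09 (SE), with an unadjusted p of 0.030 and an adjusted p of 0.96 in limma. It did not pass the test.

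Abcb4, the phosphatidylcholine transporter, was higher at 20 h in 5 chemicals. The log2 signal was 10.66 in DPN, 10.63 in ENU, 10.52 in EtOH, 10.50 in AAT and 10.42 in DMN. The 5 controls lay between 9.95 and 10.24, below these arrays. How many of all tested probe sets did the same is not given here, so this is a description. The EtOH array is the one with the high 3' to 5' ratio, and its control the one with high Cyp2b10. DBP, PB and DMBA, at 10.06, 10.04 and 9.89, were not above the controls. The ratios of the 5 were 0.61, 0.39, 0.40, 0.48 and 0.47 in the order of the signals. For the genotoxic class at 20 h the difference was 0.37 ± 0.16 (SE, 5 of 6 chemicals above 0), with an adjusted p of 0.96 in limma. Abcb4 was not past 2-fold in any of the 32 arrays, and its ratios ran from -0.50 to 0.61.

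Abcg2, a pump for sulfate conjugates and many drugs, lay between 8.60 and 10.28 on all arrays. Its ratios ran from -0.69 in DMBA at 14 days to 0.71 in ENU at 14 days, with none past 2-fold. At 20 h 7 of the 8 chemicals were above 0, the lowest being -0.20 in DBP and the highest 0.63 in EtOH, and with the PB array and its control exchanged PB would be at -0.28. Inducers minus other chemicals was 0.30 ± 0.10 (SE) at 28 days (adjusted p = 0.91, limma).

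Abcb1a, the P-glycoprotein gene, was near the limit of the array. Its brighter probe set was at the floor, a log2 signal of 5.02, on 15 of 52 arrays, and the other on 51, so that ratios of this gene rest on dim signal. The 2-fold value was -1.06 in ENU at 14 days, from a log2 signal of 5.33 in ENU and 6.39 in its control. The other controls of 14 days lay between 5.38 and 5.81, and against the mean of all 5 the ratio was -0.44. Of all tested probe sets, 2.09% were past 2-fold down in that array. Saline controls of 14 days differed by up to 1.01 for this gene. At 4 h the ratio was 0.79 in DPN, 0.44 in PB and 0.15 in AAT, and it was 0.20 in DMN, -0.14 in DMBA, -0.35 in EtOH, -0.39 in ENU and -0.41 in DBP. DMN thus lay above AAT, and the DPN and DMN controls were at the floor. PB at 14 days had the highest signal of the 52 arrays, 6.61, and a ratio of 0.80.

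The inducers were compared with the other chemicals in limma fits with the control set as a block. At 4 h 0.0218% of 18349 probe sets passed an adjusted p of 0.05, at 20 h 0.00545%, and at 14 days, at 28 days, over all times and for the first day minus later times 0%. None of the 10 member probe sets passed in any of these 6 comparisons. At an unadjusted p under 0.05 there were 1 member probe set at 4 h, 0 at 20 h, 0 at 14 days, 2 at 28 days, 1 over all times and 1 for the first day minus later. Of all tested probe sets, 7.18%, 8.20%, 3.41%, 5.22%, 5.37% and 6.92% were under that p in the same order, so the members' counts are no result about them. With 1 array for each chemical and 6 residual degrees of freedom at a time, small differences are not detectable.

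Over all times 7 of the 8 genes were higher in inducers and 1 was lower, with a median of 0.13 where the median of all tested probe sets was -0.01. These genes share arrays and controls, and the share of all tested probe sets that was higher is not given here, so the count is a description. The fit over all times takes arrays of a chemical at different times as separate replicates, so its SE and p can be too small. Abcb1a, at the floor on 15 arrays, was at 0.32 ± 0.12 (SE, unadjusted p = 0.0093, adjusted p = 0.85 in limma). Of the genes never at the floor, Abcc2 was at 0.17 ± 0.12, Abcc3 at 0.17 ± 0.11, Abcg5 at 0.14 ± 0.07 and Abcg2 at 0.13 ± 0.10. Abcb4 was at 0.07 ± 0.08 and Abcg8 at 0.06 ± 0.08, and Abca1 at -0.16 ± 0.10. With values as deposited, without scaling, Abcc2, Abcc3, Abcb4, Abcg2, Abcg5 and Abcg8 were below 0. At 20 h Abcc2 was at 0.62 ± 0.28 (adjusted p = 0.61) and Abcc3 at 0.44 ± 0.35 (adjusted p = 0.69), and without AAT these were 0.23 and -0.08. Without the EtOH and PB set at 20 h they were 0.69 and 0.86.

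The genes around the transporters are given by the same comparison over all times, in which no probe set was called. The inducers were set apart as inducers of P450 and NRF2 target genes, so the values of the NRF2, CAR and PXR and dioxin receptor targets restate the grouping and are a description. Of 20 NRF2 targets with a probe set 19 were higher in inducers, with Srxn1 (0.54), Gstm3 (0.45), a glutathione transferase, and Gclc (0.38) among the largest. Of 14 CAR and PXR targets 11 were higher, with Cyp2b10 at 1.48 and Cyp2c55, a P450, at 0.75. Of 5 dioxin receptor targets 3 were higher, Cyp1a1 at 0.95. Hepatic uptake transporters went the other way in 7 of 8, with Slc22a7, an organic anion transporter, at -0.16 and Slco1b2, which takes up bile acids and drugs, at -0.13. The 22 other ABC transporters were split evenly, with 11 higher and 11 lower, and the largest that was never at the floor was Abcc6 at -0.31. Of 10 LXR and sterol targets 7 were lower, with Cyp7a1, the rate-limiting enzyme of bile acid synthesis, at -0.35. Of 10 regulators 6 were lower, while Nfe2l2, which encodes NRF2, was at 0.38. Of 5 membrane anchors, such as Pdzk1 (-0.05), 4 were lower. All 10 Kupffer cell and macrophage markers were lower (median -0.07), 6 of 7 hepatocyte markers higher (median 0.03), 4 of 7 endothelial, 4 of 5 stellate and 4 of 6 lymphocyte markers lower and 2 of 3 cholangiocyte markers higher. Genes of a list share arrays and controls, and the share of all tested probe sets higher in inducers is not given. All these counts of direction are therefore a description. The part of these cell types in the transporter values was not tested.

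The study's own question, genotoxic against non-genotoxic chemicals, was asked of the same genes. For the genotoxic class against its controls 0% of probe sets passed at each of the 4 times. For genotoxic minus non-genotoxic, 0.104%, 0.114%, 0.0599% and 0.518% passed at 4 h, 20 h, 14 days and 28 days, and 0 of 10 member probe sets at any. At an unadjusted p under 0.05 there were 1, 2, 0 and 0 member probe sets for the class and 1, 0, 0 and 0 for the difference. Of all tested probe sets, 9.73%, 4.62%, 11.8% and 6.08% were under that p for the class and 3.89%, 4.52%, 5.50% and 13.3% for the difference, so these counts are no result about the members. The member at 4 h was Abcc3 in both, where all 6 genotoxic chemicals were below 0: the class was at -0.27 ± 0.09 (SE, adjusted p = 0.47 in limma) and the difference at -0.47 ± 0.19 (adjusted p = 1.00). Its ratios there were -0.43 in ENU, -0.34 in DPN, -0.33 in AAT, -0.26 in DBP, -0.10 in DMN and -0.08 in DMBA, against 0.04 in EtOH and 0.37 in PB. The groups did not overlap, but how many of all tested probe sets separate in this way is not given here. The test did not pass, and the non-genotoxic arrays share 1 control. At 20 h the Abcc3 difference had the opposite sign, 1.09 ± 0.53 (SE, adjusted p = 0.88 in limma). There the ratios of EtOH (-0.68) and PB (-0.87) rest on the control with high Cyp2b10. At 14 and 28 days it was 0.26 and -0.09, so Abcc3 had no steady direction between the classes.

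Genes with the most similar ratios over the 32 arrays were sought among 14565 probe sets above the floor on at least 26 arrays. Since the ratios share controls and arrays, the correlations are a description. Nearest to Abcc3 was Gstm3 (r = 0.78), then 4931406C07Rik (0.76) and Lcp1 (0.75), and nearest to Abcc2 were Anxa7 (0.74), Cds2 (0.73) and Ncl (0.73). Nearest to Abca1 were Ptprd (0.84), Lpgat1 (0.81) and Notch2 (0.80), and to Abcg2 Ugt2b5 (0.79), Arfgef1 (0.78) and Eif2s3x (0.75). Abcg8 was nearest to Lamp2 (0.72), Edem1 (0.72) and Fads2 (0.70), and Abcb4 to Eif3l (0.68), Praf2 (0.67) and Tkfc (0.64). Abcg5 (Gigyf1, 0.62) and Abcb1a (Tead1, 0.55) had the weakest best matches.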

How the data were processed

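Liver RNA pooled from 5 mice was measured on 52 Affymetrix arrays. The authors deposited linear probe set intensity values for each array. Array medians lay between 17.9 and 205, and what software and scaling produced them was not given in the sources used here. No replicate arrays exist within a chemical and time, so the number of arrays limits the precision. All per-sample columns were used (not used: 0).

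The 64 control probe sets were left out. Arrays were scaled to a common median, the mean of the array medians. The 30th percentile of all scaled values (a signal of 32.5) served as a floor before the log2 step. The filter asked for signal above it on 4 or more arrays. Of the probe sets, 20380 had a single symbol, 691 several and 1555 no symbol. The brightest probe set on average, of those that passed, stood for a gene.

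Arrays were grouped by the deposited labels. limma 3.58.1 in R 4.3.3 (lmFit, eBayes with a variance trend) was fitted with control set as a fixed block, and called at a Benjamini-Hochberg adjusted p of 0.05 over 18349 probe sets. Residual degrees of freedom were 6 at a time, 30 over all times and 24 for the first day (4 h and 20 h) minus later. Fits that joined times took arrays of a chemical at different times as separate replicates. Fits were tested on simulated data. Ratios of single chemicals had no test. Figures used matplotlib 3.10.9 in Python 3.11.15.

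The members and the gene lists were chosen with earlier results of these data known. Named were the members, 5 reference genes of induction (Cyp1a1, Cyp2b10, Nqo1, Gclc and Hmox1), up to 4 genes of each other list by size of the difference over all times, and the 3 nearest genes of each member. Not every gene so set is named. Genes given beside AAT at 20 h and DPN at 4 h, and Nr1i2, were chosen after their values were seen, and so was Pdzk1 as an example. Alternatives covered scaling, floor, filter, block, variance trend, fold limit and leaving out chemicals. Those using the mean of all 5 controls, or the exchange of the PB array and its control at 20 h, were chosen after seeing the data.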

Additional observations from a re-analysis of the deposited data

Results flagged for a closer look

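Of 64 tests for an array far from the others of its group, 4 gave such an array, and chance gives about 1 in 20. In the 4 saline controls of 28 days, the ENU control had the highest log2 signal of Abcb1a (5.36, where the other 3 were at the floor of 5.02) and of Abcb4 (10.31, where the next was 10.17). In the 4 saline controls of 20 h, the control of EtOH and PB had the lowest Abca1 (10.26, where the next was 10.55), and it is the array with the high Cyp2b10. In the 6 genotoxic chemicals at 20 h, DBP had the lowest ratio of Abcg2 (-0.20, where the next was 0.21).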

How the results depend on the processing

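Counts of called member probe sets stayed at 0 in all alternatives but 3. For genotoxic minus non-genotoxic at 4 h the count was 1 with values as deposited and 1 with no filter, in each case the Abcb1a probe set that is at the floor on 51 arrays. At 20 h it ranged from 0 to 1 over leaving out each chemical, with 1 without PB, a dimmer probe set of Abca1. The 6 ratios past 2-fold became 3 with quantile normalization, 31 with values as deposited, 18 at a limit of 1.5-fold and 0 with the mean of all 5 controls, and stayed at 6 with the PB array and its control exchanged at 20 h.

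With values as deposited the inducer difference over all times turned to -0.0135 for Abcc2, -0.0143 for Abcc3, -0.11 for Abcb4, -0.0523 for Abcg2, -0.0436 for Abcg5 and -0.12 for Abcg8, that of Abcg2 at 28 days to -0.561 and that of Abca1 for the first day minus later to 0.065. Deposited arrays differ in overall brightness, since no scaling is applied in that setting. The Abca1 difference over all times was 0.103 with another of its probe sets, and the cause was not tested. Leaving out each chemical moved Abcc3 at 20 h from -0.0806 without AAT to 0.956 without PB. Each treated array is tied to its own control by the labels, and the fits take this up as the control set block.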
